A study of Mus musculus with 3 samples.

Results

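Cytokine and chemokine producing T cells were taken from intratumoral pmel T cells as the cells with the highest expression of 7 effector genes. The score of a cell was the sum of its UMIs of *Ifng*, *Xcl1*, *Ccl3*, *Ccl4*, *Il2*, *Il3* and *Crtam* over all its UMIs, each UMI standing for 1 RNA molecule read from the cell. Members were chosen by this score, as the 10% of pooled cells with the highest score, 2845 of 28452 cells that held 2000 to 120000 UMIs and at most 20% mitochondrial UMIs. The files hold 31026 cells in all. The 7 genes are therefore described below with no test.

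The cells came from B16F10 melanomas grown in C57BL/6 mice, with 3 libraries, 1 for each treatment, and the methods give an age of some weeks at purchase for C57BL/6 mice at the site that kept the pmel colony. In every group, pmel T cells, CD8+ cells with a transgenic receptor for a gp100 peptide and the Thy1.1 marker, had been activated with gp100 and cultured with 10 nM cytokine for 6 days before adoptive cell transfer (ACT). Mice had been irradiated with 6 Gy and received the cells on day 5 after tumor injection, followed by 4 intraperitoneal doses of 2.5 μg cytokine every 48 hours, and Thy1.1+CD8+ cells alive at the sort were taken from tumors on day 18. The groups were sIL-2, an engineered IL-2 with high affinity for IL-2Rβ, IL-2/21-Trikine, which joins sIL-2 to a binder of the IL-21 receptor, and sIL-2 + IL-21. According to the methods, mice given cells cultured in sIL-2 + IL-21 were dosed with IL-2 alone, so IL-21 reached these cells in culture and not in the mouse. Each library is a single sample, so treatments are compared without a test, and intervals cover counting error only. Below, values for the 3 libraries follow the order sIL-2, IL-2/21-Trikine, sIL-2 + IL-21.

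T cells release cytokines mainly while their receptor is engaged. Receptor signaling raises calcium, calcineurin then lets NFAT enter the nucleus, and NFAT acts with AP-1 and NF-kB at cytokine genes, while EGR and NR4A factors are made within a short time of stimulation. Among the score genes, *Ifng* encodes interferon-γ, *Il2* the T cell growth factor IL-2 and *Il3* a growth factor of myeloid precursors. *Xcl1* encodes the ligand of XCR1 on cross-presenting dendritic cells, *Ccl3* and *Ccl4* encode CC chemokines that draw in other immune cells, and *Crtam* encodes an adhesion receptor of activated CD8+ T cells.

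Upstream sequences are shown for the score genes with the most UMIs, for *Il2*, and for *Ccl1*, because their summed levels were higher in members. *Ccl1* had the most UMIs in members among the named genes outside the score. Each stretch is the 200 bases before the start site on the gene's own strand, from RefSeq promoters of GRCm38.p6, with the NFAT core GGAAA or its reverse complement TTTCC in capitals. *Xcl1* lies at chr1:164935523-164935722, minus strand, *Ifng* at chr10:118440846-118441045, plus strand, *Ccl3* at chr11:83649379-83649578, minus strand, *Il2* at chr3:37125955-37126154, minus strand, and *Ccl1* at chr11:82179813-82180012, minus strand.
Xcl1: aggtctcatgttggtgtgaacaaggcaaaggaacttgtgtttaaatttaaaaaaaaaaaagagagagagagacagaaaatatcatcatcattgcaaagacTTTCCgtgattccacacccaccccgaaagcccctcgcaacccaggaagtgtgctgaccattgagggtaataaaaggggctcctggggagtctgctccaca
Ifng: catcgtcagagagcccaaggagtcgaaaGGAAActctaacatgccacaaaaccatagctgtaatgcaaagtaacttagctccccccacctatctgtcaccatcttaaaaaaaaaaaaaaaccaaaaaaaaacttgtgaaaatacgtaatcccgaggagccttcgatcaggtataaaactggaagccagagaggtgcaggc
Ccl3: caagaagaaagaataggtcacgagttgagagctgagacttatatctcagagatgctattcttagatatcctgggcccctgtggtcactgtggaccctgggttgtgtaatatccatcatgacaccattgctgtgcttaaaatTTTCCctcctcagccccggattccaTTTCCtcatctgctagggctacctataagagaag
Il2: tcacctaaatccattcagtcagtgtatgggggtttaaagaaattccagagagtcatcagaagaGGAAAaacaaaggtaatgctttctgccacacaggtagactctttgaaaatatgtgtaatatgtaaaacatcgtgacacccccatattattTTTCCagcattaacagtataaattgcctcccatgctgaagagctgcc
Ccl1: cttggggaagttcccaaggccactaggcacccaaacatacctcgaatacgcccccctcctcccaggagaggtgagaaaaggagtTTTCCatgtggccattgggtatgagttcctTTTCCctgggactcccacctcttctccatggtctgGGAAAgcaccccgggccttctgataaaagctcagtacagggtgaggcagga
The core occurred in 4 of the 5 score genes found in the table, and in 47.6% of all 32851 promoters over the same length. It occurred 2 times upstream of *Ccl3* and of *Il2* and 3 times upstream of *Ccl1*, and 15.1% of all promoters held at least 2 copies. The AP-1 letters TGANTCA, present in 5.48% of all promoters, were in none of these windows. These matches describe letters in a window and are not binding sites. *Ccl4* and *Crtam* had no entry.

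Members made up 886 of 7494, 1200 of 11524 and 759 of 9434 cells. The shares were 11.8% (95% exact binomial interval 11.1 to 12.6), 10.4% (9.86 to 10.99) and 8.05% (7.504 to 8.61). The ratio of shares was 1.47 (1.34 to 1.61) when sIL-2 was divided by sIL-2 + IL-21. It was 1.29 (1.19 to 1.41) for IL-2/21-Trikine divided by sIL-2 + IL-21 and 0.881 (0.812 to 0.956) for IL-2/21-Trikine divided by sIL-2. Members were therefore most frequent with sIL-2 and least frequent with sIL-2 + IL-21 in these libraries, with no replicate check. The lead of sIL-2 over IL-2/21-Trikine was within counting error when the 5% of cells with the highest score were taken (0.961, 0.85 to 1.09) and when *Ccl4* was left out of the score (0.933, 0.860 to 1.01). Median UMIs per member were 15890, 11804 and 11996, beside 12836.5, 11569 and 14773 in the other cells, so members were deeper than other cells with sIL-2 and shallower with sIL-2 + IL-21. After every cell was thinned to 2000 UMIs, the 3 ratios were 1.44, 1.27 and 0.880.

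Score UMIs were concentrated in the members, as the choice by score requires. They made up a median of 3.86%, 4.24% and 4.91% of a member's UMIs, and 0.0843%, 0.118% and 0.106% of another cell's. Members held 71.8%, 67.4% and 65.5% of all score UMIs in 13.5%, 10.8% and 7.66% of all UMIs. The score ran on without a gap at the limit. The 200 members with the lowest scores spanned 1.90% to 2.10% and the 200 other cells with the highest scores 1.75% to 1.90%. *Ifng* was at 1363 CPM, which are UMIs scaled to a common total per group of cells, in these last members and at 1274 CPM in those first other cells, and *Ccl4* at 5503 and 5566 CPM. *Xcl1* was at 10059 and 8546 CPM. Outside the score, *Csf2* was at 1061 and 747 CPM and *Tnf* at 56.2 and 58.0 CPM. The cut is thus a rank in the score, and its neighbours have near-equal scores by construction.

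*Xcl1* was at 22695, 24377 and 24521 CPM in members and at 1405, 1881 and 1123 CPM in other cells. *Ccl4* was at 14353, 15525 and 16252 CPM in members and at 936, 648 and 703 CPM in other cells. *Ccl3* was at 6965, 6549 and 8827 CPM in members, beside 277, 190 and 223 CPM. These 3 chemokines make up most of the score, so the gap to other cells and the like levels among members follow in part from the selection. *Ifng* was at 4344, 4047 and 4790 CPM in members and at 334, 206 and 323 CPM in other cells. *Il2* was at 251, 170 and 282 CPM in members and at 3.32, 2.49 and 1.87 CPM elsewhere. *Il3* was at 373, 165 and 557 CPM in members and at 4.38, 2.73 and 3.19 CPM elsewhere, and it had the widest range between libraries, with the lowest level under IL-2/21-Trikine. *Crtam* was at 653, 590 and 520 CPM, beside 86.7, 81.2 and 61.2 CPM.

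**Figure D1:**
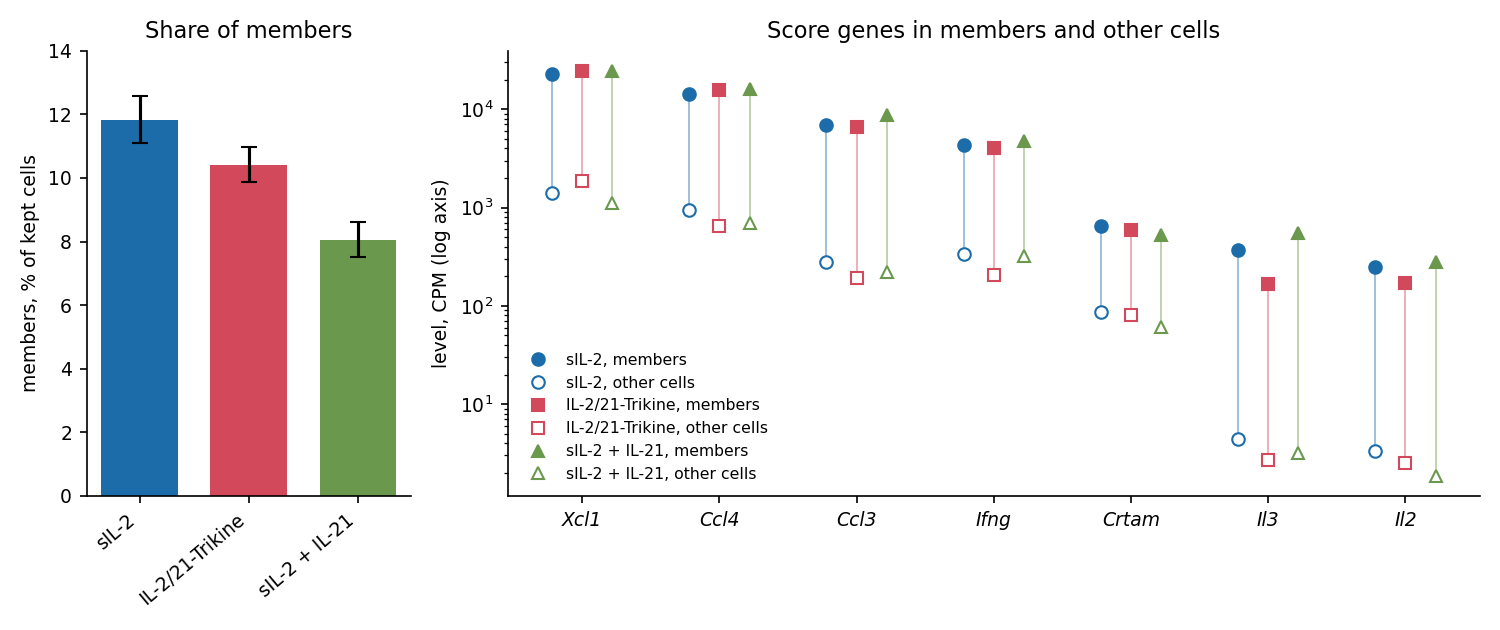
Share of members among kept cells by library (left, bars with 95% exact binomial intervals) and level of each score gene in CPM on a log axis (right), with filled symbols for members and open symbols for other cells. Members were 8.05% to 11.8% of cells, and *Il2* and *Il3* lay below 5 CPM in the other cells of every library.

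*Il2* and *Il3* were the most confined of the 7. Members held 92.2%, 89.2% and 92.6% of *Il2* UMIs and 93.0%, 88.0% and 93.5% of *Il3* UMIs, but only 54.1%, 46.8% and 41.3% of *Crtam* UMIs. With each cell thinned to 2000 UMIs, 9.37% (7.53 to 11.5), 7.5% (6.07 to 9.14) and 9.88% (7.85 to 12.2) of members had an *Il2* UMI, beside 0.303%, 0.378% and 0.231% of other cells. At the same depth, *Ifng* was found in 74.7%, 69.5% and 80.8% of thinned members and in 22.2%, 17.3% and 24.7% of other cells. Before thinning, *Ifng* was found in 93.3%, 88.4% and 94.6% of members and 54.0%, 45.0% and 59.6% of other cells, and *Il2* in 18.6%, 13.3% and 17.4% of members. Some barcodes without T cell transcripts had such UMIs too. Among 32 kept barcodes with no UMI of *Cd3d*, *Cd3e*, *Cd3g* or *Trac*, 2 of them members, at a median depth of 2823 UMIs, 21.9% (9.28 to 39.97) had an *Ifng* UMI after thinning, 40.6% (23.7 to 59.4) *Ccl4*, 16 of 32 *Xcl1* and 21.9% *Ccl3*. Of these 32, 8 had at least 3 myeloid markers, and 5 of the 8 had *Ccl4*, 5 *Ccl3* and 0 *Ifng*, so this set is no clean background for the chemokines. The shares of other cells with *Ifng* and *Ccl4* lay within these intervals, and whether they come from the cells or from free RNA was not tested. For *Il2* and *Il3* the count was 0 of 32, with an upper bound of 10.9%, which is too wide to set a background for the members' shares of *Il2*.

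*Xcl1* was the score gene with the most UMIs in 56.2% of members and *Ccl4* in 39.5%. *Ccl3* led in 2.29%, *Ifng* in 2.04%, and *Il2*, *Il3* and *Crtam* in 0 of 2845. A median member owed 44.3% of its score to *Xcl1*, 30.5% to *Ccl4*, 11.97% to *Ccl3* and 2.79% to *Ifng*. At full depth, 73.2% of members had UMIs of 4 of the 5 genes *Ifng*, *Xcl1*, *Ccl3*, *Ccl4* and *Il2*, and 15.4% had all 5. The score therefore reads chemokine transcripts first, and *Il2* was carried by a minority.

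Identity was checked with marker lists. The 7 T cell markers (CD3 chains, *Trac*, *Cd8a*, *Cd8b1*, *Thy1*) summed to 4732, 4271 and 4047 CPM in members and 5089, 4439 and 4105 CPM in other cells, and at least 99.8% of members in each library had a T cell marker UMI. Markers of melanoma cells summed to 4.44, 5.50 and 2.96 CPM in members and 6.70, 9.44 and 2.29 CPM in other cells, with *Sox10* at 0 in members, and those of B cells to 1.25, 0.953 and 1.79 CPM beside 2.55, 2.18 and 1.72 CPM, with *Ms4a1* and *Pax5* at 0. Dendritic cell markers summed to 16.8, 19.0 and 37.4 CPM beside 23.8, 51.8 and 31.1 CPM. With sIL-2 + IL-21, these 3 sums were higher in members than in other cells, and their part in the results was not tested. The 8 NK cell markers summed to 144, 74.1 and 154 CPM in members and 383, 167 and 318 CPM in other cells. *Klre1* and *Fcer1g* made up most of these sums. *Eomes* went the other way in every library (14.35, 7.009 and 3.347 CPM beside 11.37, 4.714 and 2.583 CPM). *Tyrobp* did so with IL-2/21-Trikine and *Klra4*, near 0, with sIL-2 + IL-21. *Ncr1* and *Klra8* were at 0 in members and at most 0.22 CPM in other cells. Myeloid cells also make *Ccl3* and *Ccl4*. The 15 myeloid markers summed to 132, 62.4 and 43.2 CPM in members and 28.2, 30.3 and 27.0 CPM in other cells, *C1qa* was at 0 in members with sIL-2 and *S100a8* in those with sIL-2 + IL-21, and 6, 6 and 4 members had at least 3 myeloid markers. These barcodes were deep, with a median of 25120 UMIs over the 106 such barcodes among all kept cells, and 8 of the 106 had no UMI of the CD3 chains or *Trac*. Markers of CD4+ and regulatory T cells summed to 13.9, 6.11 and 9.58 CPM in members and 21.1, 15.9 and 16.9 CPM in other cells. *Ikzf4* carried most of both sums (9.23, 4.37 and 6.15 CPM beside 18.2, 14.4 and 14.3 CPM). *Tnfrsf25* was higher in members of every library. *Cd4* and *Foxp3* were higher in members with sIL-2 and of mixed direction elsewhere. These 3 genes lay at 2.165 CPM or less. Erythroid markers summed to 1.03, 0.0561 and 0.156 CPM beside 79.7, 0.177 and 0.562 CPM. The high erythroid sum was seen in the other cells of the sIL-2 library alone. Barcodes shared between libraries numbered 17 to 30 per pair, and 0 of them were members in both libraries.

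To see what else marks the members, their summed counts were compared with those of the other cells of the same library, without the score genes, by edgeR's quasi-likelihood test with the library as a block. Of 8812 genes tested, 3032 (34.4%) were higher and 3225 (36.6%) lower in members at an adjusted p under 0.05, so a call by itself says little about a gene. Without the library block, 1845 were higher and 1744 lower, and 57.4% of the calls were kept. These p-values measure how far a ratio repeats over 3 libraries of 3 treatments. In the edgeR comparisons below, CPM are scaled by TMM factors and leave out the score genes. Log2 ratios there are means ± SD over n = 3 libraries. CPM of *Cxcl2* without barcodes with myeloid markers, of deciles and between libraries also leave out the score genes but carry no TMM factors. All genes tested had a median log2 ratio of -0.02.

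Further cytokines were higher in members, and 7 of the 15 named genes with the highest ratios were on this list. Of 23 cytokines and chemokines outside the score that were tested, 15 were higher and 3 lower (*Il16*, *Ebi3*, *Tnfsf10*), with a median log2 ratio of 0.98. *Ccl1*, which encodes a ligand of CCR8, was at 8162, 7781 and 9168 CPM in members and at 825, 640 and 613 CPM in other cells (log2 3.60 ± 0.30, adjusted p = 4.0e-06). The lowest value of members was far above the highest of other cells. How many of all genes tested were likewise free of overlap was not counted, for this and for similar statements below. *Ccl9*, a CC chemokine, was at 154, 170 and 206 CPM beside 11.6, 10.3 and 11.6 CPM (log2 3.98 ± 0.22, adjusted p = 2.2e-06). *Csf2*, which encodes GM-CSF, was at 1821, 1127 and 2388 CPM beside 381, 259 and 494 CPM (log2 2.22 ± 0.08, adjusted p = 2.2e-06). The ratio of *Csf2* hardly differed between libraries, while its level in members did. *Tnf* was at 130, 120 and 164 CPM beside 23.1, 17.5 and 21.3 CPM (log2 2.74 ± 0.23, adjusted p = 4.0e-06). *Lta*, the gene of lymphotoxin alpha, had a log2 ratio of 2.19 ± 0.35 and *Tnfsf14*, which encodes LIGHT, one of 2.58 ± 0.41. *Cd40lg*, the CD40 ligand that acts on dendritic cells and B cells, was at 74.3, 85.5 and 86.0 CPM beside 15.8, 12.6 and 8.87 CPM (log2 2.76 ± 0.52, adjusted p = 1.8e-05). The low level in other cells under sIL-2 + IL-21 gave *Cd40lg* its widest ratio there.

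*Cxcl2*, a chemokine of myeloid cells and one of the 15 myeloid markers, also passed the test (log2 3.28 ± 1.60, adjusted p = 0.00061), with the widest spread of the named genes. Its UMIs came from a few barcodes. In members with sIL-2, 8 barcodes held all 1152 *Cxcl2* UMIs, 1 of them held 56.4%, and 98.4% were in the 6 barcodes with at least 3 myeloid markers. The corresponding shares in the IL-2/21-Trikine library and in the remaining library were 99.7% and 98.6%. Without such barcodes, *Cxcl2* was at 1.09, 0.119 and 0.168 CPM in members beside 0.198, 0.152 and 0.234 CPM in other cells, and no longer passed the test (fitted log2 ratio 1.34, adjusted p = 0.29). The members with sIL-2 were still the highest by this definition. Without these barcodes, 3046 genes were called higher and 3231 lower. *Cxcl2* is itself one of the markers that define these barcodes. When barcodes were defined by at least 3 of the 14 other markers, a definition chosen after the data were seen, they held 98.4%, 91.8% and 98.6% of the *Cxcl2* UMIs of members, and *Cxcl2* without them was at 1.09, 3.20 and 0.168 CPM.

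**Figure D2:**
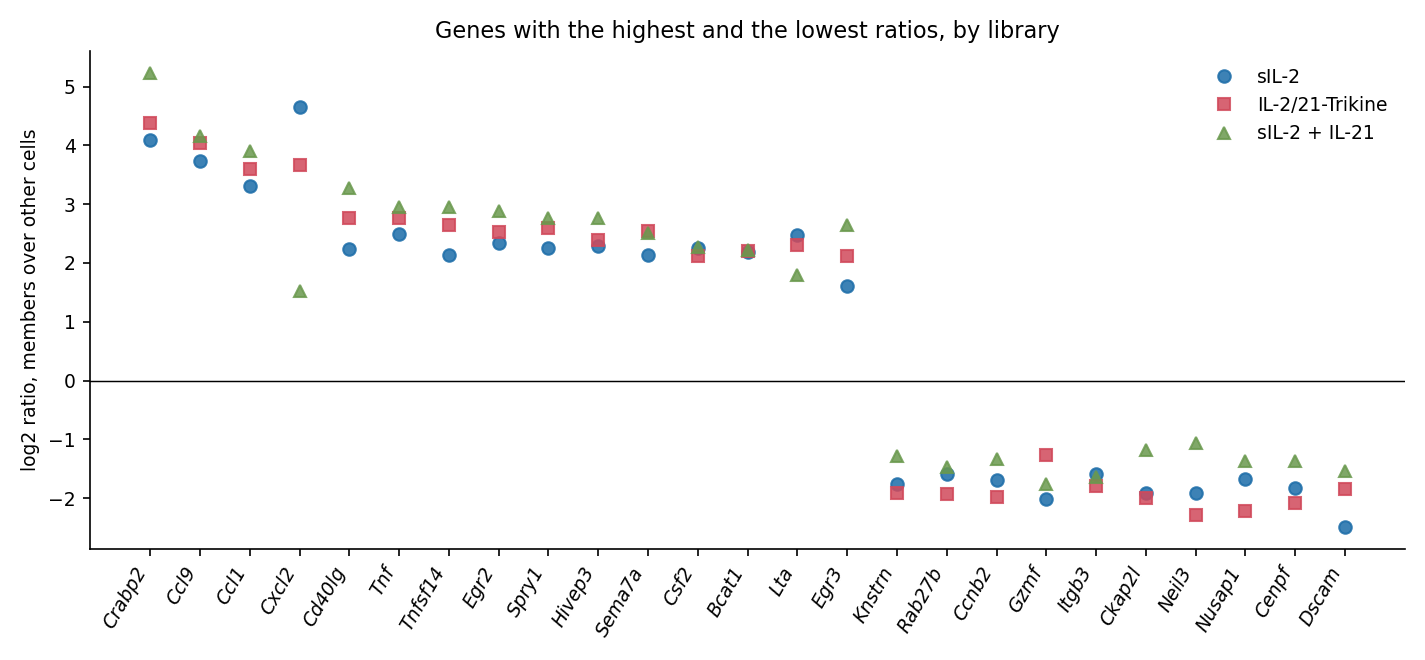
Log2 ratio of members over other cells in each library for the 15 genes with the highest and the 10 with the lowest mean ratio among called genes, score genes left out. All points of a gene lie on the same side of 0, as the choice of genes required. *Cxcl2* spreads from 1.53 with sIL-2 + IL-21 to 4.65 with sIL-2.

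Immediate early transcription factors were higher together. Of 19 NR4A, EGR and AP-1 genes tested, 17 were higher and 2 lower, with a median log2 ratio of 1.09. *Egr2* was at 56.3, 55.3 and 51.4 CPM in members and at 11.2, 9.63 and 7.01 CPM in other cells (log2 2.58 ± 0.28, adjusted p = 4.6e-06). *Nr4a1*, a gene switched on by receptor signaling and known from reporter mice, was at 777, 513 and 553 CPM beside 264, 142 and 126 CPM (log2 1.85 ± 0.29). *Nr4a3* was at 514, 418 and 421 CPM beside 237, 160 and 165 CPM (log2 1.29 ± 0.15). Members of each library lay above the other cells of all libraries for these 3 genes, a separation whose share over all genes was not counted. *Egr3* (log2 2.13 ± 0.52), *Egr1* (1.60 ± 0.13) and *Fos* (1.57 ± 0.22) were higher as well, and *Myc* was at 276, 347 and 250 CPM beside 74.0, 82.9 and 54.6 CPM (2.05 ± 0.15). Some of these genes also respond to tissue dissociation. Of 13 heat shock and dissociation genes, 9 were higher and 1 lower with a median of 0.56, led by *Ier3* (1.60 ± 0.25) and the chaperonin gene *Hspd1* (1.26 ± 0.15), and their part in the result was not tested.

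Genes downstream of the receptor were split by pathway. In the NF-kB list, 13 of 18 were higher and 3 lower (median 0.40), among them *Rel*, an NF-kB subunit active at cytokine genes, at 983, 891 and 827 CPM beside 429, 418 and 331 CPM (log2 1.20 ± 0.11), and the inhibitor gene *Nfkbid* (1.44 ± 0.26). In the MAPK feedback list, 7 of 11 were higher and 2 lower (median 0.57), with the inhibitor gene *Spry1* at 2.54 ± 0.26 and the phosphatase gene *Dusp2* at 1.25 ± 0.18. The calcineurin and NFAT list had 6 higher and 7 lower of 15 (median -0.02), near the median of all genes. There, *Nfatc1* (0.74 ± 0.14) and the calcium channel gene *Orai1* (0.68 ± 0.02) were higher, and the calcineurin subunit genes *Ppp3cc* (-0.72 ± 0.09) and *Ppp3ca* (-0.56 ± 0.15) were lower. Of 16 genes of the T cell receptor complex and its first kinases, 9 were higher and 2 lower (*Cd3g*, *Lck*), with a median of 0.29. Factors that shorten cytokine mRNAs were higher in 7 of 12 and lower in 2, with *Zfp36* (1.07 ± 0.24) and *Zfp36l1* (1.08 ± 0.23) ahead. The zinc finger gene *Hivep3*, which was not on a list, was at 288, 252 and 230 CPM beside 59.4, 48.2 and 33.9 CPM (log2 2.48 ± 0.25, adjusted p = 4.1e-06).

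Biosynthesis genes were uniformly higher. All 16 ribosome biogenesis and MYC target genes tested were higher, with a median log2 ratio of 1.41, the highest of the lists with more than 3 genes tested. *Nolc1*, a nucleolar protein gene, was at 320, 411 and 338 CPM in members and at 96.3, 130 and 122 CPM in other cells (log2 1.62 ± 0.13, adjusted p = 4.0e-06), and *Srm*, the gene of spermidine synthase, had a log2 ratio of 1.87 ± 0.15. All 15 genes of the ER and secretory pathway were higher (median 0.59). The ER chaperone gene *Hspa5* was at 1578, 1644 and 1741 CPM beside 742, 741 and 727 CPM (1.17 ± 0.09), and *Hyou1* had 1.41 ± 0.03. Members and other cells did not overlap for *Hspa5*, and the share of all genes without overlap was not counted. Of the glycolysis and amino acid transport genes, 8 of 19 were higher and 1 lower (median 0.12), with the transporter genes *Slc7a1* (1.32 ± 0.04) and *Slc1a5* (1.30 ± 0.04) ahead. *Bcat1*, a branched-chain aminotransferase gene outside these lists, had 2.20 ± 0.02, the smallest spread among the 25 named genes, and *Crabp2*, which encodes a carrier of retinoic acid, had the highest ratio of the named genes, at 119, 132 and 106 CPM beside 7.004, 6.32 and 2.84 CPM (4.57 ± 0.59, adjusted p = 5.1e-06). *Sema7a*, which encodes a membrane-bound semaphorin, had 2.40 ± 0.23.

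**Figure D3:**
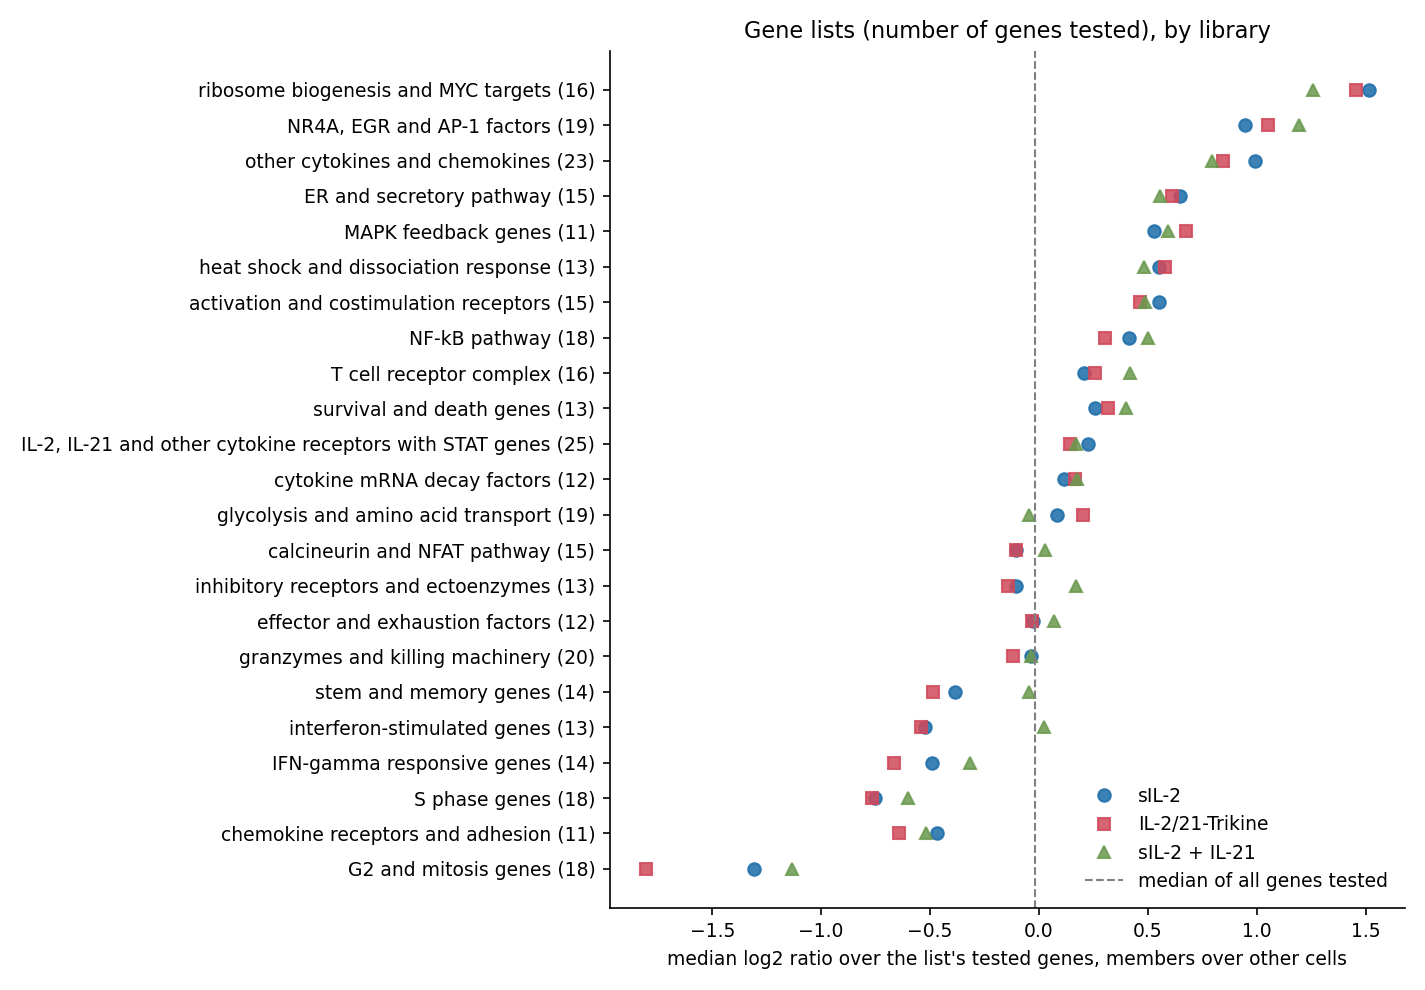
Median log2 ratio of members over other cells for each gene list by library, with the number of genes tested in parentheses and the median of all tested genes as a dashed line. Among the lists drawn, ribosome biogenesis lies highest and mitosis genes lowest in all 3 libraries, and interferon-stimulated genes lie below 0 with sIL-2 and IL-2/21-Trikine but at 0.02 with sIL-2 + IL-21.

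Cell cycle genes were lower in members. All 18 G2 and mitosis genes tested were lower, with a median log2 ratio of -1.43, and 16 of 18 S phase genes were lower and 1 higher (median -0.64). *Mki67*, a marker of cycling cells, was at 46.6, 56.1 and 93.3 CPM in members and at 134, 194 and 214 CPM in other cells (log2 -1.50 ± 0.30, adjusted p = 2.5e-05). *Cenpf*, which encodes a kinetochore protein, was at 15.5, 18.7 and 30.4 CPM beside 55.3, 79.5 and 78.5 CPM (log2 -1.76 ± 0.36), and the cyclin gene *Ccnb2* had -1.67 ± 0.33. Members of each library were below the other cells of all libraries for these 3 genes, a separation whose share over all genes was not counted. *Nusap1*, *Ckap2l* and *Knstrn* of the mitotic spindle and the DNA glycosylase gene *Neil3* were also among the 10 lowest, with log2 ratios from -1.65 to -1.76. *Myc* and ribosome biogenesis genes were thus higher, and mitosis genes lower, in the summed counts of members. Whether single members carried both traits was not tested.

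The killing genes were split. Of 20 tested, 5 were higher and 7 lower (median -0.07), shares that were not above those of all genes. *Gzmb*, the granzyme gene best known from cytotoxic T cells, was at 3295, 3468 and 5061 CPM in members and at 3268, 2708 and 5382 CPM in other cells (log2 0.09 ± 0.23, adjusted p = 0.30), and *Prf1*, the gene of perforin, had 0.07 ± 0.32 (adjusted p = 0.58). The lower genes included neighbours in the granzyme family, but *Gzmg* of this family differed in direction between libraries. Members held 3.73%, 27.6% and 1.22% of its UMIs, beside 13.5%, 10.8% and 7.66% of all UMIs. *Gzmf* was at 165, 101 and 392 CPM in members and at 665, 243 and 1324 CPM in other cells (log2 -1.68 ± 0.38, adjusted p = 3.3e-05), *Gzmc* at 967, 830 and 2234 CPM beside 2446, 1906 and 4907 CPM (-1.22 ± 0.10), and *Gzme* and *Gzmd* had -1.29 ± 0.51 and -1.23 ± 0.66. *Gzmf* no longer passed the test without the library block (adjusted p = 0.079). *Srgn*, the proteoglycan gene that packs granules, went the other way (0.97 ± 0.20), as did *Serpinb6b*, a gene of a granzyme inhibitor family (0.85 ± 0.13). These granzyme genes are close copies, so counting could split reads between them. *Rab27b*, a GTPase gene of vesicle release, had -1.66 ± 0.24.

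Interferon genes were lower although *Ifng* was high. Of 14 IFN-γ responsive genes, 12 were lower and 2 higher (median -0.48), among them *Psmb9* of the immunoproteasome (-0.85 ± 0.19) and the GTPase gene *Igtp* (-0.72 ± 0.21). *Ifngr1*, a chain of the IFN-γ receptor, was at 249.2, 201.6 and 229.2 CPM in members and at 591, 498 and 434 CPM in other cells (log2 -1.16 ± 0.21, adjusted p = 2.1e-05). Of 13 interferon-stimulated genes, 8 were lower and 1, *Bst2*, higher. Their median ratio was below 0 with sIL-2 (-0.52) and IL-2/21-Trikine (-0.54) and at 0.02 with sIL-2 + IL-21, where the level of these genes was low in other cells as well.

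Surface receptors and fate genes did not move as a block. Of 15 activation receptors, 11 were higher and 1 lower (median 0.51). *Tnfrsf9*, the gene of 4-1BB, was at 1648, 1562 and 1412 CPM in members and at 796, 661 and 670 CPM in other cells (log2 1.12 ± 0.10), and *Slamf7* had 1.29 ± 0.09. Inhibitory receptors had 5 higher and 6 lower of 13. *Cd160* was at 573, 516 and 523 CPM beside 159, 157 and 109 CPM (1.94 ± 0.28), whereas *Ctla4* was at 257, 244 and 214 CPM beside 561, 514 and 453 CPM (-1.09 ± 0.03) and *Pdcd1*, the gene of PD-1, had -0.82 ± 0.09. Stem and memory genes had 3 higher and 8 lower of 14 (median -0.36), with library medians of -0.39, -0.49 and -0.05, the last near that of all genes (-0.03). Among them were *Il7r* at -1.19 ± 0.29 and *Tcf7*, a transcription factor of stem-like T cells, at 37.2, 34.9 and 16.8 CPM beside 59.9, 62.8 and 22.2 CPM (-0.65 ± 0.23, adjusted p = 0.00031). *Bach2*, another factor of early T cells, was higher (0.41 ± 0.24). Among effector and exhaustion factors, 5 of 12 were higher and 3 lower, with *Zeb2* at 386, 307 and 283 CPM beside 115, 102 and 76.8 CPM (1.74 ± 0.14) and *Ikzf2* at -1.63 ± 0.18. *Tox* passed narrowly (-0.36 ± 0.43, adjusted p = 0.048).

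The receptor chains bound by the drugs did not move together. Of 25 cytokine receptor and signaling genes tested, 14 were higher and 8 lower (median 0.18). *Il2rb*, the chain for which sIL-2 was engineered, was lower in members, at 370, 247 and 341 CPM beside 485, 337 and 412 CPM (log2 -0.37 ± 0.09, adjusted p = 0.00041). *Il21r*, the IL-21 receptor gene, was higher, at 233, 173 and 178 CPM beside 135, 122 and 106 CPM (0.68 ± 0.16, adjusted p = 8.9e-05), and so was the shared chain gene *Il2rg* (0.41 ± 0.12). *Il2ra*, the high-affinity chain of the IL-2 receptor, was at 625, 468 and 527 CPM in members and at 337, 264 and 301 CPM in other cells (log2 0.84 ± 0.04), and *Stat5a*, which acts downstream of it, was at 176, 174 and 169 CPM beside 68.4, 62.3 and 48.6 CPM (1.55 ± 0.22). *Jak2* was higher (1.43 ± 0.27) and *Il12rb2* lower (-0.74 ± 0.08). None of the 11 chemokine receptor and adhesion genes tested was higher by edgeR and 8 were lower (median -0.67), among them *Ccr2* (-0.67 ± 0.14) and *Itgb7* (-0.85 ± 0.25), and *Itgb3*, an integrin gene outside this list, had -1.68 ± 0.11. *Dscam*, which encodes an adhesion molecule, had the lowest ratio of all named genes, -1.95 ± 0.48. Survival genes had 7 of 13 higher and 2 lower, led by *Cflar*, which blocks caspase-8 (1.35 ± 0.16), and *Bcl2l1*, which encodes BCL-XL (1.09 ± 0.05), while *Bcl2* was lower (-0.43 ± 0.19).

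The levels of genes such as *Csf2* and *Egr2* changed before the limit of the score, but not every gene ran evenly along it. When all cells were divided into 10 deciles by score, *Csf2* was at 93.1, 66.0 and 111.5 CPM in decile 1, at 993.9, 622.7 and 1114 CPM in decile 9 and at 1855, 1072 and 2270 CPM in decile 10, the members, on CPM without TMM factors. *Egr2* reached 36.3, 26.5 and 26.0 CPM in decile 9 and 57.3, 52.6 and 48.9 CPM in members. *Tnf* stayed at 46.2, 36.0 and 42.3 CPM in decile 9 and stood at 132, 114 and 156 CPM in members, so most of its range fell in the last decile. *Mki67* went from 105, 131 and 138 CPM in decile 9 to 47.4, 53.3 and 88.7 CPM in members, but with IL-2/21-Trikine it was lower in decile 1 (102 CPM) than in decile 5 (238 CPM). *Gzmf* was at 1393, 326 and 2336 CPM in decile 1 and at 168, 96.2 and 372 CPM in members. Members held 44.3%, 42.6% and 36.5% of all *Tnf* UMIs and 58.3%, 56.8% and 52.7% of *Ccl1* UMIs.

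**Figure D4:**
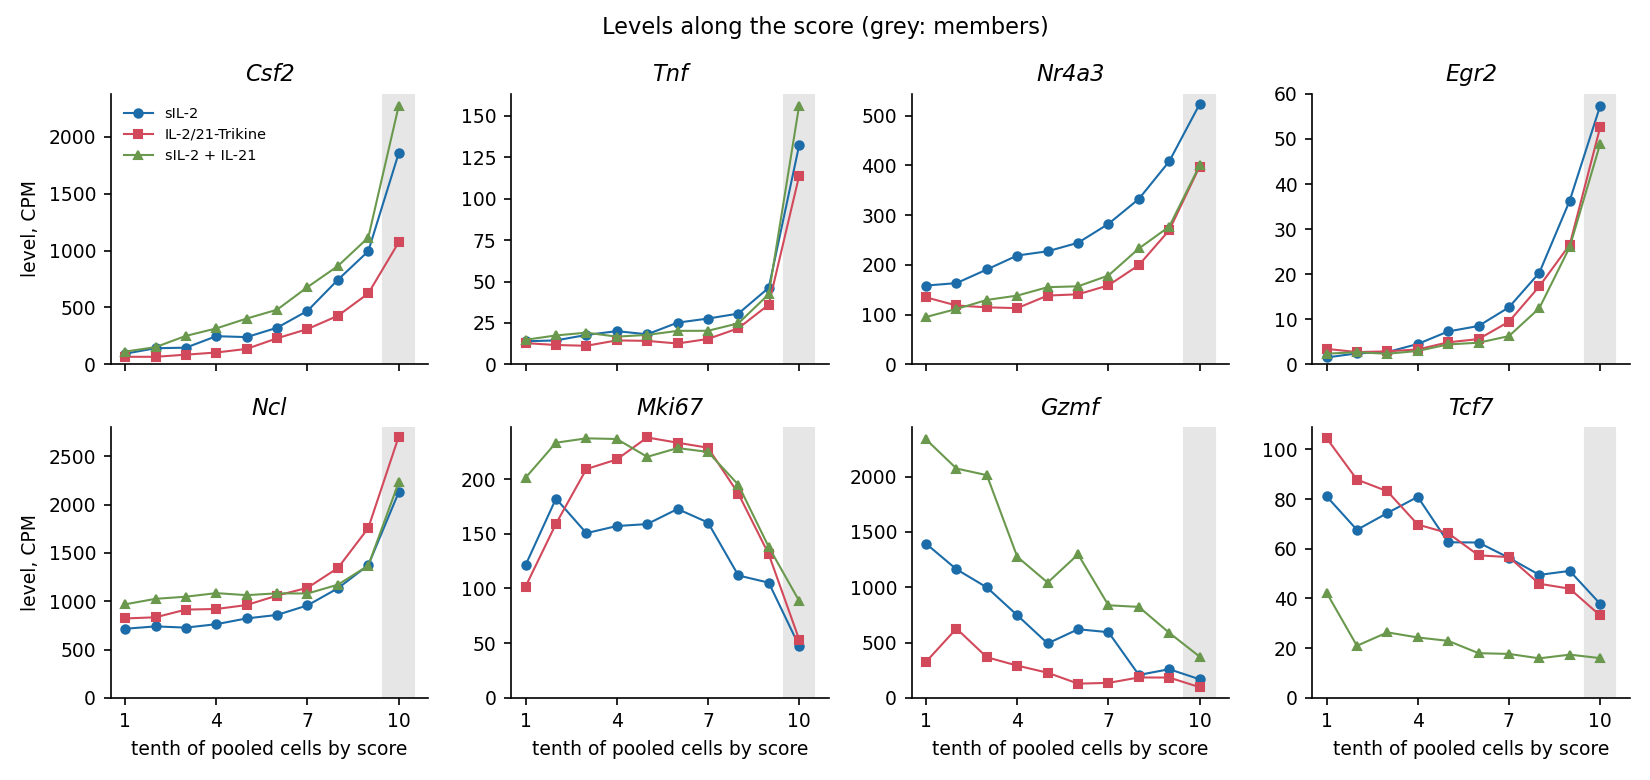
Level in CPM (linear axes from 0) of 8 genes over deciles of the pooled cells by score, by library, with the members in grey. *Csf2*, *Nr4a3*, *Egr2* and *Ncl* climb over several deciles, *Tnf* mainly in the last, and *Mki67* and *Gzmf* are lower in the members than in decile 9.

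Members that carried *Il2* were compared with the other members. After thinning to 2000 UMIs, 83, 90 and 75 members had an *Il2* UMI. Their median score was 8.40%, 8.33% and 9.93%, beside 3.69%, 4.10% and 4.50% in the rest, and their median depth was 17698, 13166 and 12887 UMIs beside 15716, 11710.5 and 11749.5. Score and depth were thus higher in the first group, and the values were also computed from thinned cells, given at the end of this comparison. Of 8812 genes, 221 (2.51%) were higher and 96 (1.09%) lower by edgeR. Of 23 other cytokines, 12 were higher and 1 lower, with a median log2 ratio of 0.38 beside 0.00 over all genes tested. Of the 3 myeloid markers tested, 2 were lower. *Tnf* was at 359, 187 and 405 CPM in *Il2*-carrying members and at 105, 109 and 130 CPM in the other members (log2 1.40 ± 0.54, adjusted p = 3.9e-07). *Cd40lg* was at 165, 170 and 175 CPM beside 63.7, 74.3 and 71.8 CPM (1.28 ± 0.09, adjusted p = 1.0e-08), and *Csf2* had 1.01 ± 0.15 (adjusted p = 4.85e-09). *Slamf6*, a receptor gene of stem-like T cells, was at 28.8, 48.9 and 31.4 CPM beside 13.7, 24.3 and 8.37 CPM (1.33 ± 0.50, adjusted p = 0.00029). *Furin*, a protease gene (1.02 ± 0.13), *Hbegf*, a growth factor gene (1.10 ± 0.35), and *Rsad2*, an antiviral gene (1.19 ± 0.36), were higher as well. *Gzmd* was at 4.01, 2.13 and 67.0 CPM beside 107, 53.2 and 104 CPM (-3.34 ± 2.34, adjusted p = 0.0014), so its ratio was large in 2 libraries and small with sIL-2 + IL-21. *Gzme* (-1.67 ± 0.72), *Slc17a6* (-1.33 ± 0.38), *Spp1*, the gene of osteopontin (-1.22 ± 1.01), *Cnih2* (-1.12 ± 0.75), *Rfc4* (-1.02 ± 0.65), *Chchd10* (-1.01 ± 0.22) and *Nrgn* (-0.97 ± 0.08) were the other named genes that were lower. With counts of thinned cells, 42 genes were higher and 39 lower, *Tnf*, *Cd40lg*, *Csf2* and *Furin* still passed, as did *Gzme*, *Slc17a6* and *Spp1*. *Slamf6* (adjusted p = 0.68), *Hbegf* (0.54), *Rsad2* (0.26), *Gzmd* (0.37), *Cnih2* (0.31), *Rfc4* (0.14), *Chchd10* (0.47) and *Nrgn* (0.24) did not pass with thinned cells, which hold fewer counts. Their fitted log2 ratios there were 0.84, 0.71, 1.26, -1.07, -1.51, -2.46, -1.46 and -0.91, and all kept their sign. DESeq2 called 131 higher and 26 lower, and *Gzmd* (adjusted p = 0.052) and *Spp1* (0.24) were not among them. No DESeq2 result was obtained for *Slamf6*, *Rsad2*, *Slc17a6*, *Cnih2*, *Rfc4* and *Chchd10*. *Rsad2* did not pass without the sIL-2 library (adjusted p = 0.15), *Cnih2* without IL-2/21-Trikine (0.10) and *Rfc4* without sIL-2 + IL-21 (0.26). Without the sIL-2 library, 109 were higher and 61 lower, without IL-2/21-Trikine 202 were lower, and without sIL-2 + IL-21 111 were higher and 48 lower.

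Members with more *Ifng* than *Ccl3* and *Ccl4* UMIs together (*Ifng*-rich members) were rare, 44 of 886, 64 of 1200 and 25 of 759. They were deeper, with medians of 22776.5, 19541.5 and 19158 UMIs beside 15506, 11513 and 11727 in members where the chemokines prevailed. By edgeR, 479 genes (5.44%) were higher and 519 (5.89%) lower. *Xcl1* was not part of this split, and *Ifng* was the leading gene of the whole score in only 18, 26 and 14 members. The name *Ifng*-rich therefore stands for the split alone, and *Ifng* levels of the groups were not compared. Of 18 S phase genes, 9 were higher in the *Ifng*-rich members and 0 lower, with library medians of 0.71, 0.60 and 0.44 beside 0.00 over all genes. Of 18 G2 and mitosis genes, 6 were higher and 0 lower, but the library medians were 0.15, 1.49 and 0.00, so the median of 0.75 over the libraries rests mostly on the IL-2/21-Trikine library. ER genes followed, with 9 of 15 higher and 0 lower. *Crabp2* was at 338, 231 and 291 CPM beside 102, 119 and 93.2 CPM (log2 1.44 ± 0.42, adjusted p = 1.3e-06), and *Idi1*, an enzyme gene of sterol synthesis, had 1.26 ± 0.37. *Serpinb9b*, a granzyme B inhibitor family gene, had 1.41 ± 0.73, and *Il23a*, the p19 chain of IL-23, had 1.87 ± 0.44. *Perp* (1.59 ± 0.17), *Spdl1* (1.38 ± 0.21), *Cd83* (1.10 ± 0.46) and *Rad51b* (1.09 ± 0.33) were the remaining named genes that were higher. In contrast, 12 of 16 receptor complex genes and 11 of 13 interferon-stimulated genes were lower, with 0 higher in either list, as were all 7 T cell markers, with log2 ratios from -0.28 to -0.43, and 2 of the 3 myeloid markers tested. Of the other cytokines, 11 of 23 were lower, among them *Tnf*, *Cd40lg* and *Ccl5*, and 5 were higher, among them *Csf2* and *Lta*. *Egr1* (-1.93 ± 1.10), *Egr3* (-1.84 ± 1.13), *Cxcr3* (-1.78 ± 1.41), *Cxcl10* (-2.19 ± 1.52), *Gzmd* (-3.04 ± 1.60), *Gzmf* (-2.96 ± 2.31) and *Gzme* (-2.33 ± 3.19) were lower with wide spreads. With thinned cells, which hold fewer counts, 21 genes were higher and 148 lower and 73 of the 998 called genes had the other sign, and DESeq2 called 252 and 272. With thinned cells *Il23a*, *Perp*, *Spdl1*, *Cd83*, *Rad51b*, *Gzmd*, *Gzme*, *Cxcl10* and *Cxcr3* no longer passed (adjusted p from 0.074 to 0.57), although the fitted log2 ratios of *Il23a* (1.76), *Perp* (1.98), *Spdl1* (1.73), *Cd83* (1.07) and *Rad51b* (1.28) were still above 1. Of the lower genes, *Gzmd* shrank from a fitted log2 ratio of -2.71 to -1.17, while *Gzme* (-3.03), *Cxcl10* (-1.71) and *Cxcr3* (-1.61) were still below -1. *Gzmf* (0.061) and *Gzme* (0.41) did not pass in DESeq2. Among the named genes that were higher, *Il23a*, *Perp*, *Spdl1* and *Rad51b* had no DESeq2 result. *Gzme* did not pass without the sIL-2 library (adjusted p = 0.14), its library ratios being -6.00, -0.64 and -0.33. Without the sIL-2 library 273 were higher, and without sIL-2 + IL-21 308 were higher.

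The members of the 3 libraries were compared by size of ratio, on CPM without the score genes and without TMM factors. Among genes with at least 50 CPM in members of either library, IL-2/21-Trikine over sIL-2 had 0 of 3141 genes (0%) higher, with no test, and 7 (0.223%) lower by a log2 ratio of 1 or more. IL-2/21-Trikine over sIL-2 + IL-21 had 2 of 3029 (0.0660%) higher and 29 (0.957%) lower, and sIL-2 over sIL-2 + IL-21 had 12 of 3148 (0.381%) higher and 20 (0.635%) lower. At a limit of 20 CPM the totals of the 3 pairs were 29, 67 and 100 genes in place of 7, 31 and 32, and the first was 25 with thinned cells. Each library enters 2 of these pairs, so the pairs are not independent. In the other cells, 14, 25 and 52 of the same genes passed this limit, and 6, 15 and 17 passed it in both kinds of cells in the same direction.

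*Gzma*, a granzyme gene, was at 3171, 853 and 4607 CPM in members and at 4080, 1136 and 4772 CPM in other cells, so its low level with IL-2/21-Trikine was common to both. *Fcer1g*, an adaptor gene of Fc and NK receptors, was at 55.0, 24.7 and 95.4 CPM in members and 196, 60.6 and 198 CPM in other cells. *Cdkn2a*, a cell cycle inhibitor gene, was at 24.4 CPM with IL-2/21-Trikine against 105.5 CPM (log2 -2.12, counting interval -2.27 to -1.96), a wider gap than in other cells (-1.52, -1.57 to -1.47). *Gzmd* had a log2 ratio of -1.09 in members and -2.04 in other cells for the same pair, and *Rhoq* -1.15 and -0.94. The 5 highest genes of that pair, *Hmgn1*, *Hells*, *Gmnn*, *Mtln* and *Cenpw*, lay between 0.72 and 0.90 in members and between 0.59 and 0.93 in other cells. Compared with sIL-2 + IL-21, members under IL-2/21-Trikine had more *Nrn1* (95.5 and 31.2 CPM, log2 1.62, 1.45 to 1.78), beyond the gap in other cells (0.84, 0.80 to 0.89), and less *Il1r2*, the decoy receptor of IL-1 (9.58 and 61.1 CPM), with the same log2 ratio of -2.67 in both kinds of cells. *Klra5* (-2.03) and *Gzmf* (-1.95) were lower in members too.

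Interferon-stimulated genes were lowest with sIL-2 + IL-21 in members and in other cells. *Isg15* was at 136, 118 and 57.2 CPM in members, and the list's median log2 ratio of sIL-2 to sIL-2 + IL-21 was 1.25 in members and 1.55 in other cells. *Ifi27l2a* (1.0) and *Ms4a4c* (0.88) had the same direction for IL-2/21-Trikine over sIL-2 + IL-21. *Penk*, the gene of an opioid precursor, was at 93.0, 80.8 and 41.5 CPM in members and at 25.7, 25.8 and 16.4 CPM in other cells. *Bcl6*, a transcription factor gene, was at 68.3 CPM in members with sIL-2 against 30.4 CPM with added IL-21, and *Ifi214* at 68.5 against 20.4 CPM. *Mt1*, a metallothionein gene, was higher with sIL-2 + IL-21 (92.0 and 295 CPM, log2 -1.68), as were *Filip1* (-1.44) and the proliferation genes *Pclaf* (-1.62), *Rrm2* (-1.51) and *Birc5* (-1.48). *Cxcl2* was the highest gene of this pair in members (69.1 and 11.95 CPM) and lay below 0 in other cells (log2 -0.59), and the myeloid barcodes given above held over 98% of its UMIs in members.

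Mitosis genes had different medians in members and other cells in both pairs with IL-2/21-Trikine. For IL-2/21-Trikine over sIL-2, the 18 G2 and mitosis genes had a median log2 ratio of -0.04 in members and 0.44 in other cells, with 9 and 18 of them above 0. For IL-2/21-Trikine over sIL-2 + IL-21 the medians were -0.88 and -0.21, with 0 and 3 above 0. In the remaining pair, of sIL-2 to sIL-2 + IL-21, the medians were -0.80 and -0.62, with 0 above 0 in both kinds of cells. S phase genes had medians of 0.58 in members and 0.62 in other cells in the first pair, -0.29 and -0.09 in the second, and -0.80 and -0.72 in the remaining one. All tested genes had medians of -0.10 and -0.09 in the first pair and 0.00 in both kinds of cells in the second. With 1 library per treatment these differences were not tested.

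**Figure D5:**
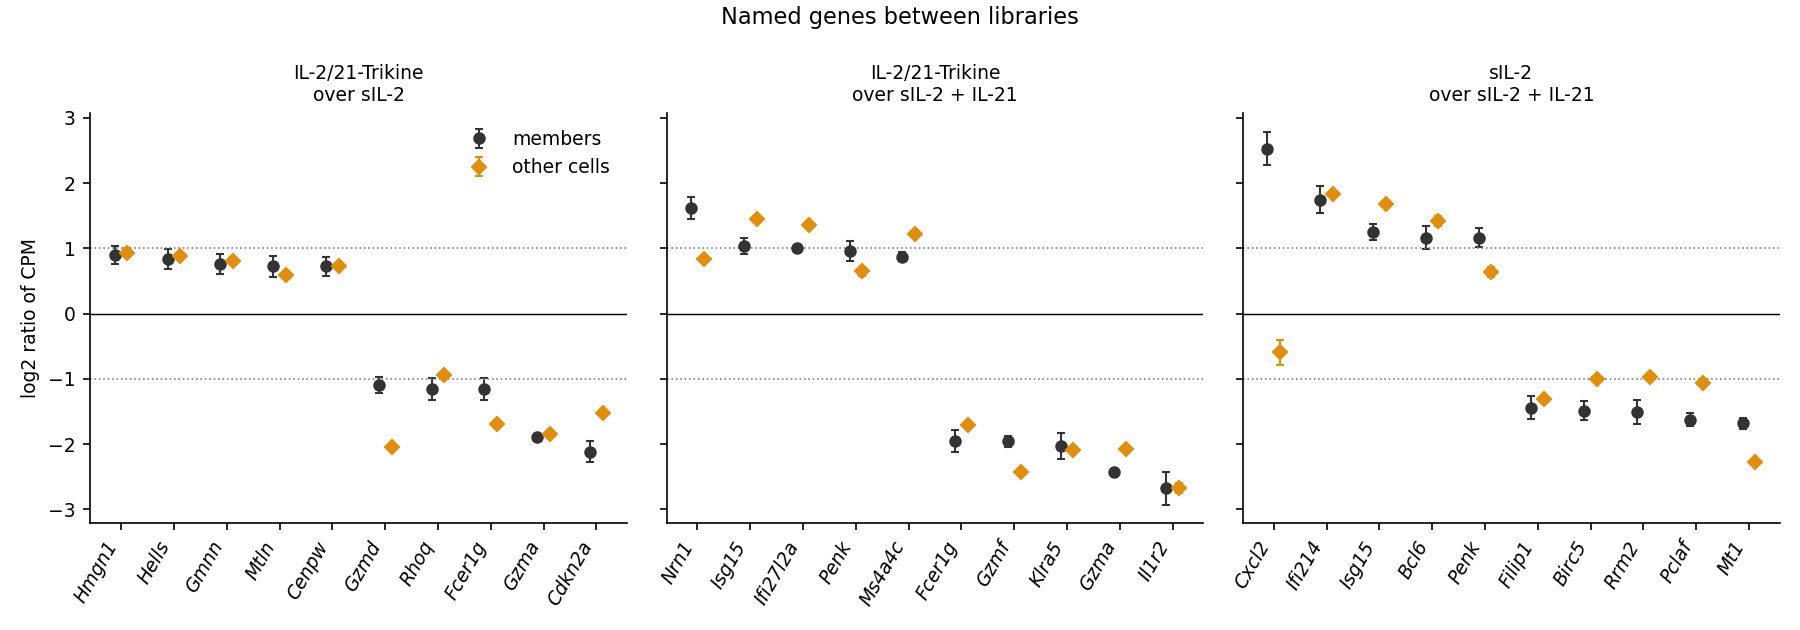
Log2 ratio of CPM between libraries for the 5 highest and 5 lowest genes of each pair in members (circles) and the same genes in other cells (diamonds), with 95% counting intervals and dotted lines at 1 and -1. Most genes go the same way in both kinds of cells, and *Cxcl2* stands at 2.53 in members and -0.59 in other cells.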

How the data were processed

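The deposited values are UMI counts, not normalized, for each gene in each cell, from Cell Ranger 9.0.0 as the file headers state. The methods name Cell Ranger Count with introns and a GRCm39 reference, while the submitters' processing notes name mm10, so no positions were taken from the counts. No deposited cell had under 500 UMIs, and 13, 7 and 4 cells of the libraries had over 120000, so that limit had not been applied. Cells were kept and members chosen as described, with no clustering. Members and gene lists were chosen with earlier results of these data known.

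UMIs were summed per library for members and other cells without the 7 score genes. Genes with at least 5 CPM over pooled cells were tested with edgeR 4.0.16 (quasi-likelihood, TMM, library as block, Benjamini-Hochberg). DESeq2 1.42.0 was an alternative. Named genes were the 15 highest and 10 lowest mean log2 ratios among called genes with 1 sign in all libraries and at least 20 CPM (8 and 8 within members, 5 and 5 between libraries at 50 CPM), plus 2 to 4 genes per list. A few more were named after their values were seen. Score genes, receptor segments, mitochondrial genes and predicted genes were not named by this rule. Cells were thinned to 2000 UMIs with a fixed seed. Doublets were scored with Scrublet in scanpy 1.11.5. Its automatic limit called at most 0.0106% of a library, so the cells with the highest scores (6.87%, 6.81% and 6.15% of the libraries, and 8.69%, 9.08% and 9.09% of members) were left out as an alternative. Intervals are 95% exact binomial or Poisson, and those of ratios of shares use a normal approximation on the log scale. Fits were also run on simulated data with few changed genes and equal gene means in all libraries. Those runs do not cover a comparison in which most genes are called. Kept UMIs per library were 129886211, 165051207 and 167689133. The number of mice per library was not found in the sources used here, and p-values measure the spread between libraries. Some genes that the rule names are not reported here.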

Additional observations from a re-analysis of the deposited data

Results flagged for a closer look

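*Cxcl2* stood out because its log2 ratio for sIL-2 divided by sIL-2 + IL-21 was 2.53 (counting interval 2.28 to 2.79) in members and -0.59 (-0.79 to -0.40) in other cells, with opposite signs. The difference was not tested, since each treatment has 1 library. Of its UMIs in members with sIL-2, 98.4% lay in 6 barcodes with at least 3 myeloid markers, and without such barcodes *Cxcl2* in members was at 1.09 CPM in the first library and 0.168 CPM in the second, so members with sIL-2 were still the higher ones. Groups held too few samples to look for single outlying libraries.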

How the results depend on the processing

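With 1 library per treatment, the ratios of member shares rest on counting alone, and no paired analysis was possible because the libraries carry no shared replicate. The comparisons within members rest on few cells and lost most calls under thinning, which also removes counts, so depth and loss of counts were not separated. The ratios and named genes recomputed here kept their sign. The balance of counts did not always, since without the block more genes were higher than lower in members, and with no filter more were lower than higher in *Il2*-carrying members. Among all called genes thinning turned the sign of 52 of 6257, 6 of 317 (*Il2*-carrying) and 73 of 998 (*Ifng*-rich), and 4 other settings turned 1 to 9 of the 6257.

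Without the library block, 1845 genes were higher and 1744 lower in members, with no filter on low counts 4857 were lower, and all other alternatives of these 2 counts were within 1.5 times. Leaving out each library gave 2523 to 3151 higher and 2729 to 3245 lower. With total UMIs in place of TMM factors, 2524 were higher and 3861 lower, so the balance moved towards lower genes. Of the 6257 genes called, DESeq2 kept the call and direction of 91.5%, thinning 77.3% and the fit without block 57.4%. With no filter, 178 genes were higher and 329 lower in *Il2*-carrying members, and 356 and 835 in *Ifng*-rich members. DESeq2 gave 131 higher and 26 lower for *Il2*-carrying and 252 and 272 for *Ifng*-rich members, and thinning gave 42 and 39, and 21 and 148. Leaving out each library gave 109 to 311 higher and 48 to 202 lower for *Il2*-carrying members and 273 to 402 higher and 354 to 407 lower for *Ifng*-rich members.

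With members as the highest 5%, the ratios of shares were 0.961 (IL-2/21-Trikine over sIL-2), 1.16 (IL-2/21-Trikine over sIL-2 + IL-21) and 1.21 (sIL-2 over sIL-2 + IL-21). Without *Xcl1* in the score, the first 2 were 0.783 and 1.11, and with at least 500 UMIs the second was 1.19. Leaving out each score gene in turn gave 0.783 to 0.933, 1.11 to 1.32 and 1.39 to 1.47. Genes past a log2 ratio of 1 between members, 7, 31 and 32, were 29, 67 and 100 at a limit of 20 CPM, and the first was 12 with cells weighted equally, 25 after thinning and 4 with TMM factors. Of single genes, 28 calls were lost over the alternatives that gave a result for the gene, 18 of them under thinning. Some genes named within members had no DESeq2 result.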

Other observations

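Barcodes under 2000 UMIs entered no comparison. They numbered 298, 1817 and 432, with a median of 1101, 872 and 839.5 UMIs. Of these, 10 (3.36%, 1.62 to 6.08), 50 (2.75%, 2.05 to 3.61) and 13 (3.01%, 1.61 to 5.09) would have passed the members' score limit, below the shares of kept cells in each library.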
